A study of Mus musculus with 6 samples.

Results

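The 10 genes described here build the MHC class I antigen presentation apparatus of the mouse. They are the heavy chain genes H2-K1, H2-D1, H2-T23 and H2-Q7, the light chain gene B2m, the peptide transporter genes Tap1 and Tap2, the loading gene Tapbp, the peptide trimming gene Erap1 and the transcriptional activator gene Nlrc5. They were chosen by gene symbol, and all 10 are among the 17744 genes of the deposited table. RNA-seq was performed on splenic CD8 T cells sorted as CD45+ CD3+ CD8a+, in 3 control libraries labelled wild type and 3 libraries labelled with focused ultrasound (fus) irradiation, a way of delivering sound energy to a chosen depth of tissue. The genotype field of the ultrasound libraries repeats the treatment, so a wild-type genotype is labelled for the controls only. The labels give no strain, age, sex, tumour status, ultrasound dose or interval, and do not say whether each library came from its own animal, so p-values measure the spread between these libraries. The libraries are called control 1 to 3 and ultrasound 1 to 3.

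MHC class I molecules carry peptides from inside a cell to its surface, where CD8 T cells read them. The heavy chain pairs with beta-2 microglobulin. The TAP transporter, made of Tap1 and Tap2, moves peptides from the cytosol into the endoplasmic reticulum, where tapasin (Tapbp) holds the empty class I molecule at the transporter and ERAP1 trims the peptides. Nearly all nucleated cells carry class I, and lymphocytes carry it at high density. NLRC5 switches on class I genes together with factors bound to a conserved promoter module, and interferon gamma raises the whole set, in part through IRF1.

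Of the 10 genes, 7 lie on chromosome 17, the chromosome of the mouse MHC. In the RefSeq annotation of GRCm38.p6, the assembly behind the authors' build mm10, Tapbp spans chr17:33919478-33929290, H2-K1 chr17:33996012-34000619, Tap1 chr17:34187556-34197225 and Tap2 chr17:34204479-34216321. H2-D1 spans chr17:35263094-35267497, H2-Q7 chr17:35439140-35443773 and H2-T23 chr17:36029977-36032701. The other 3 lie elsewhere, B2m at chr2:122147687-122153082, Nlrc5 at chr8:94434335-94527272 and Erap1 at chr13:74639573-74693205.

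The promoter module is visible in the sequence before a RefSeq transcript start of 4 of these genes. A window of 250 bases before a RefSeq transcript start was used, and one was found for 8 of the 10 genes in RefSeq, and not for Nlrc5 and Tap2, which were not searched. For H2-K1 and Erap1 the whole window lies inside the gene span given above, so the bases before that span were not searched. In H2-K1, H2-D1, H2-Q7 and B2m, a TGACG, the core of the X2 box that CREB and ATF factors are known to bind, is followed by ATTGG, the inverted CCAAT of the Y box that NF-Y binds. The stretches below run 5′ to 3′ on the gene's own strand, with those cores in capitals, and are shown because they let the spacing be compared. Positions here and for the longer windows are on chromosome 17, or for B2m chromosome 2, of GRCm38.p6.
H2-K1 (chr17.0:34000359-34000388, minus strand): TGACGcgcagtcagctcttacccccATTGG
H2-D1 (chr17.0:35262993-35263022, plus strand): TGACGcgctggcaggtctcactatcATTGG
H2-Q7 (chr17.0:35439091-35439119, plus strand): TGACGtgtaacagttctcacccctATTGG
B2m (chr2.0:122147609-122147638, plus strand): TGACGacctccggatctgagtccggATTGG

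The cores were 20 bases apart in H2-K1, H2-D1 and B2m and 19 bases apart in H2-Q7. Of 27025 promoter windows of the same length, 61 (0.226%) held TGACG followed by ATTGG on the gene's strand with 15 to 25 bases between them. TGACG alone, on either strand, stood in 17.9% of windows and CCAAT alone, on either strand, in 34.5%.

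The longer windows show how H2-D1 and H2-Q7 resemble each other and how B2m and H2-T23 differ from them. Capitals mark any match, on either strand, to the X2 core TGACG, to the Y core CCAAT, to a 10-base NF-kappa B type site (the capitals that begin with GGGG in the H2-D1 window) or to the interferon regulatory factor type site GAANNGAAA. The matches did not overlap one another in these 4 windows, and H2-Q7 is printed only up to its annotated gene start.
H2-D1 (chr17.0:35262844-35263093, plus strand): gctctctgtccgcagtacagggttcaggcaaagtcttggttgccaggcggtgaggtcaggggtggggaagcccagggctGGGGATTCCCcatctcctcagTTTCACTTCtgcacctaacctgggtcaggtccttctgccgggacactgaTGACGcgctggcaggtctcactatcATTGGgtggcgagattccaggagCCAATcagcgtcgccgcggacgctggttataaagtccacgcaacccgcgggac
H2-Q7 (chr17.0:35438905-35439139, plus strand): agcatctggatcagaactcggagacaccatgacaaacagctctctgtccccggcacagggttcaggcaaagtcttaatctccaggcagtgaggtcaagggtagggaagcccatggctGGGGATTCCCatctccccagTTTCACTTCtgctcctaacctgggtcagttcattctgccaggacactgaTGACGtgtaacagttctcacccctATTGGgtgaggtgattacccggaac
B2m (chr2.0:122147437-122147686, plus strand): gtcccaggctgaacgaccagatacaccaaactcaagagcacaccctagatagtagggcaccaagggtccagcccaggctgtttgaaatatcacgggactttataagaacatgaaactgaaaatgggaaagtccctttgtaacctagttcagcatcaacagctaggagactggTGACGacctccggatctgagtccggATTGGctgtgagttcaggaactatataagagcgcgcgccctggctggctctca
H2-T23 (chr17.0:36032702-36032951, minus strand): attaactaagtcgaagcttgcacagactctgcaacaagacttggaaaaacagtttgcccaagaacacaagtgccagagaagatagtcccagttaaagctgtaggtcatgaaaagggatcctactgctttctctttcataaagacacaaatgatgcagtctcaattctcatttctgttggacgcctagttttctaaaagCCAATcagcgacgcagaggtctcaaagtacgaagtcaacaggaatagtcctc

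The NF-kappa B type site stood in the windows of H2-K1, H2-D1 and H2-Q7, against 0.0814% of all windows, and GAANNGAAA in the same 3, against 6.34%. H2-T23 held a CCAAT only, Tap1 a TGACG and a CCAAT in another arrangement, and Tapbp 2 matches to CCAAT. The Erap1 window held none of the 4 motifs, but it lies inside the gene, and the bases before the annotated gene start were not searched. Outside the 10 genes, H2-Q6 held the NF-kappa B and interferon regulatory factor type sites but no TGACG. A match describes the letters of the window and was not tested as a binding site.

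Depth was high for all 10 genes. The libraries held 35024080 to 38113103 reads, recovered as whole numbers from the deposited values, and the lowest count for any of the 10 genes was 2346 reads, for H2-Q7 in ultrasound 3. Ultrasound 2 and 3 stood apart: both lay above the other 4 libraries for 37.3% of tested genes and below them for 25.4%. For the 10 genes, ultrasound 1 is therefore given on its own. Levels are FPKM, fragments per kilobase of gene scaled to the depth of the library, which can be compared between genes. Changes are differences, ultrasound minus control, on the log2(FPKM + 1) scale, tested with limma across the 10655 genes with at least 1 FPKM in 3 libraries.

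None of the 10 class I genes changed at an adjusted p under 0.05 by limma (0 of 10, with 2 at an unadjusted p under 0.05, Nlrc5 and Tapbp). Across all tested genes 8.11% passed, 6.55% higher and 1.56% lower, and 31.2% had an unadjusted p under 0.05. The median change over the 10 genes was 0.024 on the log2 scale, beside 0.087 over all tested genes, and single genes ranged from -0.37 for Nlrc5 to 0.43 for Tapbp. Estimates were above 0 for 6 and below 0 for 4 genes, beside 6569 and 4086 of all 10655 tested genes. Both the median and 4 of the signs depended on how the libraries were scaled, as given further on. One of the 10, Nlrc5, had q under 0.05 in the authors' deposited table, where 12.3% of all genes did, 7.3% higher and 4.98% lower.

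**Figure D1:**
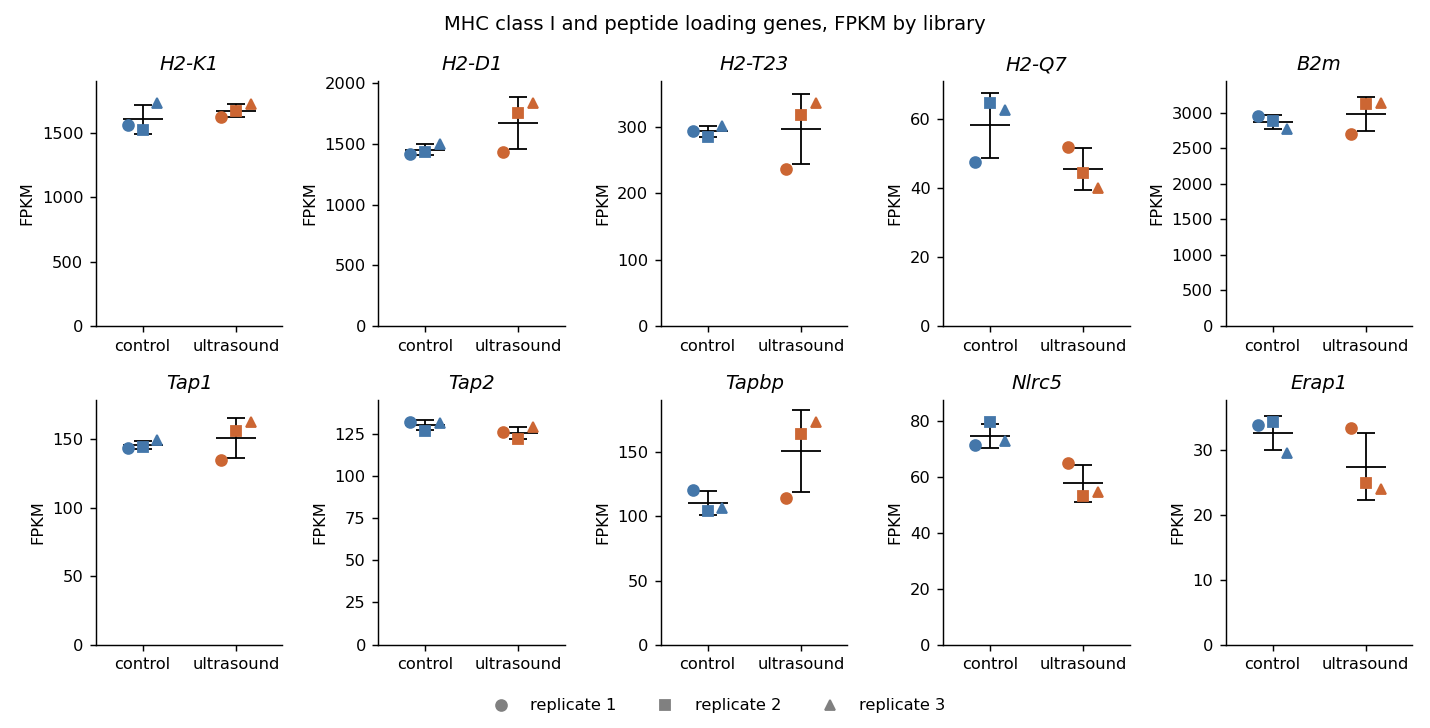
FPKM of each of the 10 genes by library, with linear axes that start at 0. Blue symbols are controls, orange symbols ultrasound libraries, the symbol shape is the replicate number, and bars show mean and SD (n = 3 each). B2m lies at 2701 to 3130 in every library, and Nlrc5 is the one gene whose 3 ultrasound libraries all lie below its 3 controls.

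Transcripts of B2m, H2-K1 and H2-D1 were among the most abundant in these libraries. By mean FPKM in the controls, H2-K1 ranked 46 and H2-D1 51 of 17744. B2m, the invariant light chain, had 2957, 2877 and 2769 FPKM in control 1, 2 and 3 and 2701, 3115 and 3130 FPKM in ultrasound 1, 2 and 3. It ranked 7 of 17744 by mean FPKM in the controls and 5 in the ultrasound libraries. Ultrasound 1 was the lowest library and ultrasound 2 and 3 the highest, so that the groups overlapped, and the change was 0.053 with standard error 0.093 (limma adjusted p 0.704).

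H2-K1, a classical heavy chain that presents peptides to CD8 T cells, had 1559, 1521 and 1728 FPKM in the controls and 1624, 1665 and 1725 FPKM in the ultrasound libraries. All 3 ultrasound values lay inside the range of the controls, with a change of 0.062 and standard error 0.088 (limma adjusted p 0.638). In H2-K1 and Tap2, unlike the other 8 genes, ultrasound 2 and 3 lay neither both above nor both below the other 4 libraries.

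H2-D1, the other classical heavy chain, had 1418, 1435 and 1502 FPKM in the controls and 1429, 1750 and 1833 FPKM in the ultrasound libraries. Ultrasound 2 and 3 lay above every other library, and ultrasound 1 lay within the controls. The change was 0.20 with standard error 0.11 (limma adjusted p 0.268). The order of the 2 classical genes differed between libraries. H2-D1 stood at 0.909, 0.943 and 0.869 of the H2-K1 level in the controls and at 0.880 in ultrasound 1, and at 1.05 and 1.06 in ultrasound 2 and 3. This ratio was picked after its values were seen and was not tested.

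H2-T23 encodes Qa-1, a heavy chain that shows leader peptides of classical class I molecules to CD94 and NKG2 receptors. It had 294, 284 and 301 FPKM in the controls and 236, 318 and 335 FPKM in the ultrasound libraries. The ultrasound libraries lay on both sides of the controls, ultrasound 1 below all 3 and ultrasound 2 and 3 above all 3, and the change was 0.0013 with standard error 0.14 (limma adjusted p 0.996).

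H2-Q7 encodes Qa-2, a heavy chain that is anchored in the membrane by a lipid. Its FPKM was 47.4, 64.5 and 62.6 in the controls and 52.0, 44.4 and 40.1 in the ultrasound libraries. Ultrasound 2 and 3 were the lowest of the 6, but ultrasound 1 lay above control 1, so the groups overlapped. The change was -0.34 with standard error 0.15 (limma adjusted p 0.175).

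The heavy chain genes resemble one another, and reads shared between copies could be assigned to any of them or dropped. Of all 50-base windows of the longest GENCODE M21 coding transcript, 34.9% for H2-Q7 occurred word for word in a transcript of another gene, most often H2-Q6 (19.3%). The share was 28.8% for H2-T23, 14.3% for H2-D1 and 8.79% for H2-K1, against 0% for B2m, Nlrc5 and Erap1, 0.861% for Tap1, 0.737% for Tap2 and 2.0% for Tapbp. The values of H2-Q7 and H2-T23, and to a lesser degree H2-D1 and H2-K1, are uncertain for this reason. The shares do not measure by how much, since the handling of shared reads is not given. Heavy chain sequence also varies between mouse strains, and the strain is not given in the sources used here.

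The proportion of heavy to light chain was compared within each library. Summed over H2-K1, H2-D1, H2-T23 and H2-Q7, heavy chain FPKM was 1.12, 1.15 and 1.30 times B2m in control 1, 2 and 3 and 1.24, 1.21 and 1.26 times B2m in the ultrasound libraries. All 3 ultrasound libraries lay below control 3 and above control 1 and control 2. The log2 ratio differed by 0.058 between groups, with SDs of 0.11 in controls and 0.026 in ultrasound libraries (n = 3 each, exact two-sided permutation p 0.4, where the smallest p that 3 against 3 allows is 0.1). The test could therefore not pass 0.05, nor could the tests with a library left out. These gave differences from 0.017 without control 1 (exact permutation p 0.8) to 0.12 without control 3 (exact permutation p 0.1).

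No gene of the peptide supply side passed the test. Tap1, one subunit of the transporter, had 144, 144 and 149 FPKM in the controls and 134, 156 and 163 FPKM in the ultrasound libraries, with ultrasound 1 below and ultrasound 2 and 3 above all controls. Its change was 0.046 with standard error 0.10 (limma adjusted p 0.765). Tap2, the partner subunit, had 132, 127 and 132 FPKM in the controls and 126, 122 and 129 FPKM in the ultrasound libraries. Its groups overlapped and lay close together, with a change of -0.052 and standard error 0.079 (limma adjusted p 0.664), the smallest standard error among the 10 genes.

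Tapbp encodes tapasin, which tethers class I to the transporter and favours well-binding peptides. It had 121, 104 and 107 FPKM in the controls and 115, 164 and 174 FPKM in the ultrasound libraries. Ultrasound 2 and 3 lay well above all other libraries, while ultrasound 1 lay below control 1. The estimate was the highest of the 10 genes, 0.43 with standard error 0.17 (limma adjusted p 0.146).

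Erap1 encodes the aminopeptidase that shortens peptides to class I length. It had 33.7, 34.3 and 29.5 FPKM in the controls and 33.4, 24.9 and 24 FPKM in the ultrasound libraries. Ultrasound 1 stood among the controls and ultrasound 2 and 3 below them, with a change of -0.25 and standard error 0.14 (limma adjusted p 0.259).

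Nlrc5, the class I transactivator, had 71.7, 79.8 and 72.9 FPKM in the controls and 65.2, 53.4 and 54.7 FPKM in the ultrasound libraries. It was the one member whose groups did not overlap: all 3 ultrasound libraries lay below all 3 controls, as 8.96% of all tested genes did (25.9% lay above and 34.8% either way), and ultrasound 1 lay between the controls and ultrasound 2 and 3. Its mean was 74.8 ± 4.40 FPKM in controls and 57.8 ± 6.50 in ultrasound libraries (SD, n = 3 each), a change of -0.37 with standard error 0.11 (limma adjusted p 0.0759). In the authors' deposited table Nlrc5 has a fold change of 0.709 and a q of 0.00425, the one such call among the 10.

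**Figure D2:**
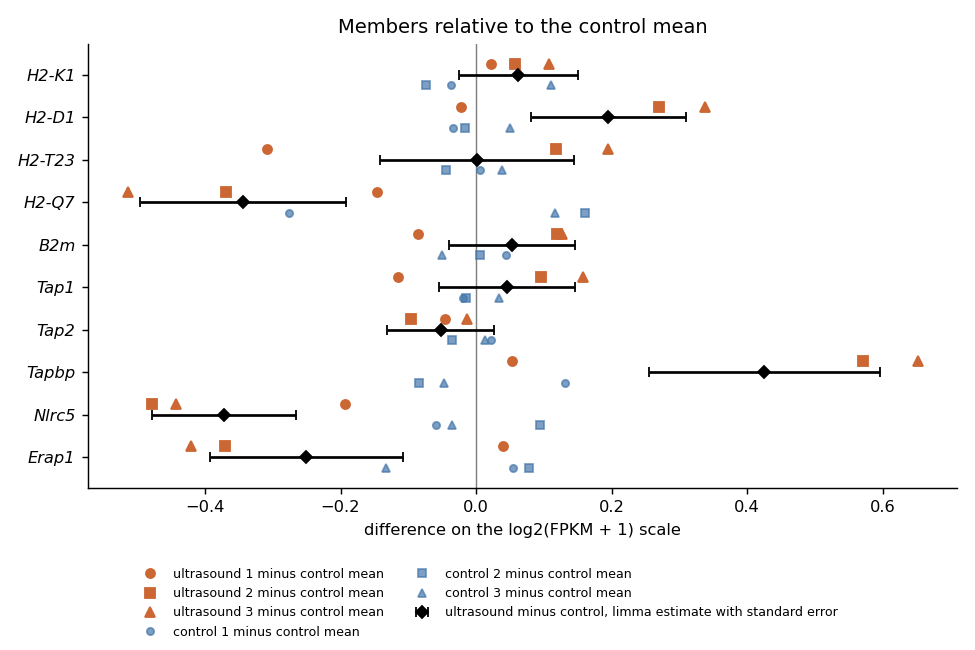
Difference of each library from the control mean, and the limma estimate with its standard error, on the log2(FPKM + 1) scale, for the 10 genes. Ultrasound 2 and ultrasound 3 lie on the same side of the control mean for every gene, and ultrasound 1 lies nearer to it for some, such as Tapbp (0.053 against 0.57 and 0.65) and Erap1 (0.039 against -0.37 and -0.42).

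The 3 ultrasound libraries did not move together. Ultrasound 2 and 3 lay above the other 4 libraries for 5 genes, H2-D1, H2-T23, B2m, Tap1 and Tapbp, and below them for 3, H2-Q7, Nlrc5 and Erap1, beside the 37.3% and 25.4% of all tested genes. Ultrasound 1 lay below every control for 5 genes, H2-T23, B2m, Tap1, Tap2 and Nlrc5, where 23.1% of all tested genes lay below. It lay within the range of the controls for the other 5, a share that was not computed over all tested genes. The median over the 10 genes, relative to the control mean, was -0.066 in ultrasound 1, 0.076 in ultrasound 2 and 0.12 in ultrasound 3, beside 0.062, 0.13 and 0.088 over all tested genes.

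Which of the 10 passed therefore rested on ultrasound 1. Without it, 5 of 10 passed with limma, Tapbp and H2-D1 higher (0.61 and 0.30, adjusted p 0.0014 and 0.00828) and Nlrc5, Erap1 and H2-Q7 lower (-0.46, -0.40 and -0.44, adjusted p 0.00223, 0.00684 and 0.0384). In that fit 53.7% of all tested genes passed, 34.1% higher and 19.7% lower, so 5 of 10 lies near the background. With ultrasound 2 and 3 given their own term, which leaves ultrasound 1 against the 3 controls, 0 of 10 passed, with 1 at an unadjusted p under 0.05, where 1.41% of all genes passed, 0.967% higher and 0.441% lower. In that fit Nlrc5 had -0.19 (limma adjusted p 0.270).

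**Figure D3:**
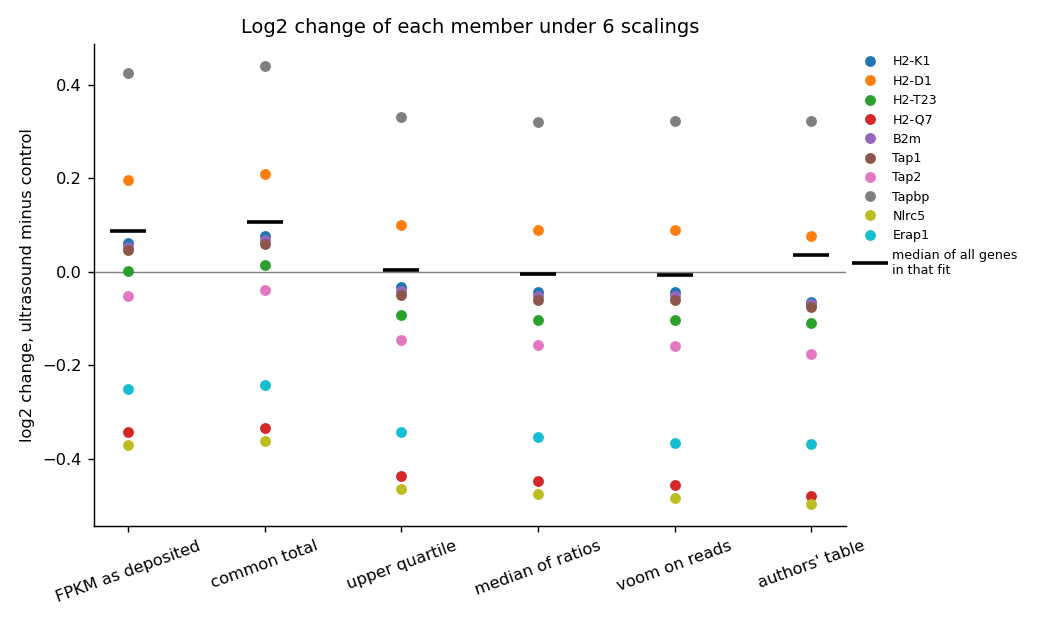
Log2 change of each of the 10 genes under 6 ways of scaling the libraries, with the median of all genes in each fit as a black bar. H2-K1, B2m, Tap1 and H2-T23 lie above 0 with FPKM as deposited or a common total and below 0 under the other 4, while Tapbp and H2-D1 stay above and Nlrc5, H2-Q7, Erap1 and Tap2 below 0 in all 6.

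The sign of 4 of the 10 values differed between scalings. With median-of-ratios size factors the median of all genes moved from 0.087 to -0.0061, and H2-K1, B2m, Tap1 and H2-T23 turned from above to below 0, at -0.044, -0.053, -0.060 and -0.10. The median over the 10 genes turned from 0.024 to -0.082. No direction can be given for these 4 genes. Under each of the 5 other scalings Nlrc5, H2-Q7 and Erap1 stayed below 0, Tapbp and H2-D1 above it, and none of the 10 passed except Nlrc5 in the authors' deposited table. The 10 genes together took 1.57%, 1.62% and 1.60% of summed FPKM in control 1, 2 and 3, against 1.57%, 1.76% and 1.80% in the ultrasound libraries.

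Other class I heavy chains gave 1 call. Of 27 listed symbols, 16 are in the table and 12 were tested. Across all tested genes 6.55% passed higher and 1.56% lower with limma, while of these 12 genes 0 passed lower and 1 higher. It was Hfe, an iron-regulating class I-like protein, with 4.82, 2.58 and 2.39 FPKM in the controls and 6.63, 11.7 and 14.6 FPKM in the ultrasound libraries (1.47 with standard error 0.31, limma adjusted p 0.0418). Every ultrasound library lay above every control, and the call was lost with median-of-ratios factors. The median over the 12 was 0.14 and estimates were above 0 for 8, beside 6569 of all 10655 tested genes. H2-Q6 shared more 50-base windows with H2-Q7 than any other gene of GENCODE M21. It had 21, 25.2 and 25.8 FPKM in the controls and 18.0, 7.84 and 10.5 FPKM in the ultrasound libraries. Its groups did not overlap, the change was -1.0 with standard error 0.27 (limma adjusted p 0.067), and the authors' deposited table gives a q of 0.00828. H2-Q9 had 30.4, 39.8 and 32.4 FPKM in the controls and 26.4, 34.8 and 33.7 FPKM in the ultrasound libraries. The H2-Q9 groups overlapped, with a change of -0.11 (limma adjusted p 0.617).

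Other genes that make and load peptides are the next group. Of 23 listed, 22 were tested. With limma 0 passed higher and 1 lower, where 6.55% of all tested genes passed higher and 1.56% lower. The median over the 22 was 0.077. The call was Hspa5, the endoplasmic reticulum chaperone BiP, with 416, 452 and 443 FPKM in the controls and 333, 214 and 247 FPKM in the ultrasound libraries (-0.74 with standard error 0.16, limma adjusted p 0.0447). All ultrasound libraries lay below all controls, and the call was lost with median-of-ratios factors and without control 1. Hspa5 assists protein folding in general and is not specific to class I. Psmb9, an immunoproteasome subunit whose gene starts head to head with Tap1, had 127, 117 and 119 FPKM in the controls and 102, 128 and 130 FPKM in the ultrasound libraries. Like Tap1 it was lowest in ultrasound 1, and its groups overlapped.

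Among 24 regulators of class I transcription, all tested, 0 passed higher and 1 lower with limma. The shares over all tested genes were 6.55% higher and 1.56% lower. The median over the 24 was 0.083. The call was Irf1, an interferon-induced activator of class I genes, with 192, 194 and 194 FPKM in the controls and 130, 107 and 126 FPKM in the ultrasound libraries. All 3 ultrasound libraries lay below the controls, ultrasound 1 included, with a change of -0.67 and standard error 0.10 (limma adjusted p 0.0304). As for every gene tested, no call was left without control 2, control 3, ultrasound 2 or ultrasound 3. Of the 24, 5 have q under 0.05 in the authors' deposited table, all lower, Irf1, Socs1, Jak1 and Jak2 among them. In that comparison 12.3% of all genes have q under 0.05, 7.3% higher and 4.98% lower. Ifngr1, a chain of the interferon gamma receptor, had higher values in all 3 ultrasound libraries without passing, with 136, 116 and 123 FPKM in the controls and 192, 153 and 172 FPKM in the ultrasound libraries (0.46, limma adjusted p 0.0578).

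**Figure D4:**
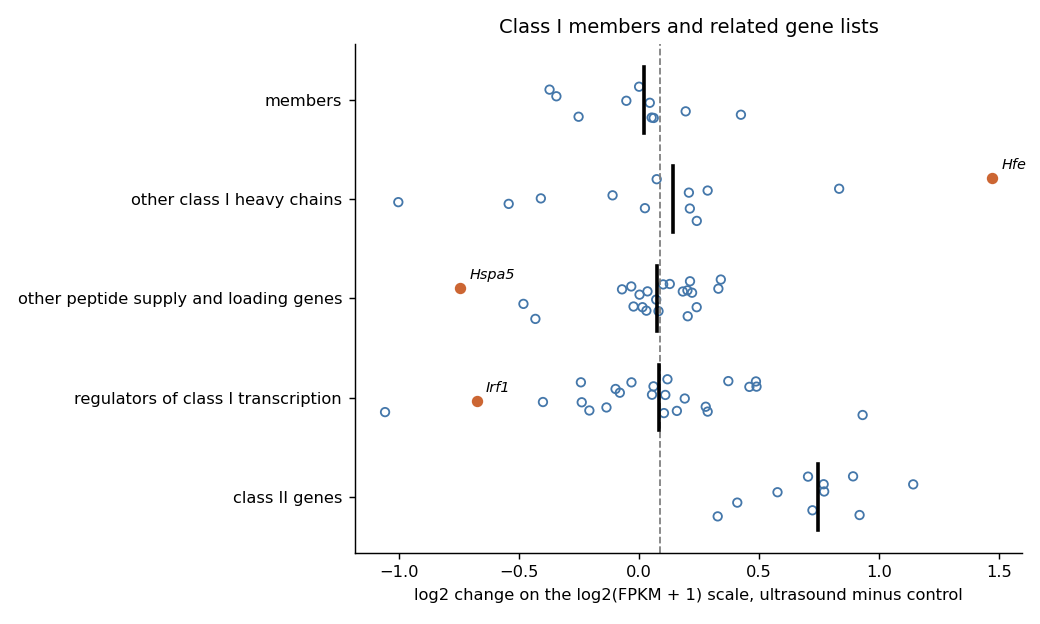
Log2 change of the 10 genes and of 4 related lists, each point a tested gene. Filled orange points passed an adjusted p of 0.05, black bars are list medians and the dashed line is the median of all tested genes at 0.087. The class II list has its median at 0.75 with no gene passing, and the other lists have medians between 0.024 and 0.14.

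Class II genes are carried by B cells, macrophages and dendritic cells. All 10 tested class II genes had estimates above 0, with a median of 0.75, and 0 passed with limma (2 at an unadjusted p under 0.05). Across all tested genes 8.11% passed, 31.2% had an unadjusted p under 0.05 and 6569 of 10655 had estimates above 0. Cd74, the invariant chain, had 1563, 796 and 805 FPKM in the controls and 824, 3013 and 2731 FPKM in the ultrasound libraries. Ultrasound 2 and 3 lay above every other library and control 1 stood apart from the other controls. Without ultrasound 1, 10 of 10 passed, all higher, in a fit where 53.7% of all tested genes passed, 34.1% higher.

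**Figure D5:**
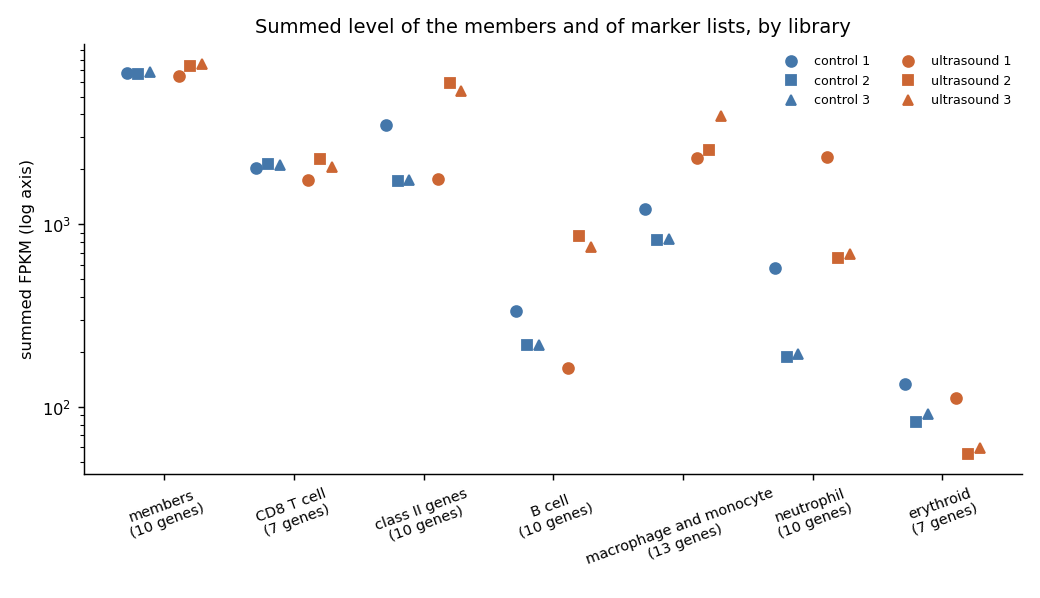
Summed FPKM of the 10 class I genes and of marker lists in each library, on a log axis. The class I sum spans 6516 to 7607 over all 6 libraries, while the class II and B cell sums are highest in ultrasound 2 and 3 and the neutrophil sum is highest in ultrasound 1.

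Markers of other cells varied with the libraries. Summed FPKM of the 7 listed CD8 T cell genes was 2041 to 2136 in controls and 1752 to 2270 in ultrasound libraries, with the CD3 chains, Cd8a and Cd8b1 above 0 in every library. The B cell list of 10 genes summed to 218 to 334 FPKM in controls, and ultrasound 1, 2 and 3 gave 163, 863 and 751 FPKM. The macrophage and monocyte list of 13 genes summed to 821 to 1218 FPKM in controls, with 2319, 2564 and 3936 FPKM in ultrasound 1, 2 and 3. Lyz2 alone had 207 to 499 FPKM in controls and 1430, 1513 and 2721 FPKM in the ultrasound libraries. Of the 13 genes, 12 had estimates above 0, and Marco had -0.037. The neutrophil list of 10 genes summed to 189 to 578 FPKM in controls, with 2326 FPKM in ultrasound 1 against 652 and 687 FPKM in ultrasound 2 and 3. Not every gene on it was highest in ultrasound 1. Csf3r had 24.8, 42.3 and 50.8 FPKM in ultrasound 1, 2 and 3, and Mmp9 and Cxcr2 were likewise lowest of these libraries in ultrasound 1. The rest of the neutrophil list was highest there. The NK cell list of 6 genes summed to 56.7 to 66.4 FPKM in controls while ultrasound 1, 2 and 3 gave 45.3, 232 and 126 FPKM. Gzma alone had 178 and 82.3 FPKM in ultrasound 2 and 3. Of the 5 tested NK cell genes, 4 had estimates above 0, and Eomes was lower, with every ultrasound library below every control. The dendritic cell list of 8 genes summed to 86.8 to 114 FPKM in controls. Ultrasound 1, 2 and 3 gave 83.6, 146 and 152 FPKM. Bst2 was its largest part, with 65.3 to 77.9 FPKM in controls and 60.0, 69.3 and 83.6 FPKM in these ultrasound libraries. Of the 4 tested dendritic cell genes, 3 had estimates above 0 and Bst2 had -0.020. The CD4 T cell list of 5 summed to 155 to 183 FPKM in controls, and the ultrasound libraries gave 183, 114 and 149 FPKM. The erythroid list of 7 summed to 83.2 to 133 FPKM in controls, and the ultrasound libraries gave 112, 55.3 and 59.5 FPKM. Within the CD4 T cell list, Ctla4 had 81.5 to 88.8 FPKM in controls and 76.8, 14.4 and 15.8 FPKM in ultrasound 1, 2 and 3. Estimates were above 0 for 3 of the 5 CD4 T cell genes and below 0 for 2. Over all tested genes, 6569 of 10655 had estimates above 0. With limma 4 of 13 tested macrophage and monocyte genes, 4 of 10 neutrophil genes and 1 of 5 NK cell genes passed, all higher, where 6.55% of all tested genes passed higher. None of the genes on these lists was at 0 in any library. Class I genes are active in all these cells, and the part of the other cells in the values of the 10 genes was not tested. In sorted bulk samples fewer cells of a type and less RNA per cell cannot be told apart.

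Genes that overlap a member on the genome could share its reads, since the strand setting of the counting is not given. Zbtb22 overlaps Tapbp on the same strand over 3422 bases and had 12.8 to 13.4 FPKM in controls, with 17.0, 16.6 and 15.3 FPKM in ultrasound 1, 2 and 3. Cast overlaps the end of Erap1 on the opposite strand over 834 bases and had 37.7 to 41.0 FPKM in controls, with 45.6, 33.5 and 32.4 FPKM in ultrasound 1, 2 and 3. Patl2 overlaps B2m on the opposite strand and reached at most 0.208 FPKM. Psmb9, whose values are given above, overlaps Tap1 on the opposite strand over 212 bases. Noncoding genes overlap H2-T23, Nlrc5, Tap2 and Tapbp.

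The pattern of the 10 genes over the 6 libraries, taken as the mean of their standardised values, was lowest in ultrasound 1 and highest in ultrasound 3. The 10 genes do not all share it, since H2-Q7 and Erap1 were lowest in ultrasound 3 and Nlrc5 in ultrasound 2. The 5 genes outside the group with the highest Pearson correlation to it were Pola2 (0.979), Zbp1 (0.973), Xaf1 (0.968), Gm51661 (0.967) and Itpk1 (0.967), a description over 6 libraries that share depth and preparation. Zbp1, a sensor of nucleic acids, had 68.4, 64.1 and 76.2 FPKM in the controls and 52.2, 69.2 and 95.7 FPKM in the ultrasound libraries, again lowest in ultrasound 1 and highest in ultrasound 3.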

How the data were processed

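Splenic CD8 T cells were profiled in 3 control and 3 ultrasound libraries, grouped by their titles. RNA was extracted with TRIzol and a VAHTS Universal kit served for library construction, per the labels' protocols and the series' design text, which name different kit versions. The submitters' processing notes name HISAT2, HTSeq, DESeq2, R 3.2.0 and build mm10, without roles. Steps beyond these are not given in the sources used here.

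The authors' table gives FPKM per gene and library, per the file headers. Its signal columns are the authors' group means of DESeq2 normalized counts. The fold change, a ratio, its log2, and the p-value and q-value are the authors' own comparison, per the file headers. The authors' filtered table is a subset and was not used.

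FPKM, with a pseudocount of 1, were tested with limma 3.58.1 (trend, robust) in R 4.3.3 over 10655 genes, with two-sided Benjamini-Hochberg adjusted p and a threshold of 0.05. The columns used hold no counts, so limma took the place of a count test. Whole reads were recovered from the linear relation between FPKM and group means: 100% of 64001 values under 1000 reads lay within 0.05 of a whole number. Python 3.11.15, numpy 2.4.6, pandas 2.3.3 and matplotlib 3.10.9 were used. Both steps were tested on simulated data. Alternatives covered scaling, pseudocount, filter, robust option, replicate block, voom on the recovered reads, a term for ultrasound 2 and 3, the authors' DESeq2 values and each library left out. Promoter windows are from RefSeq GRCm38.p6 and transcripts from GENCODE M21.

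The 10 genes and the related lists were chosen with earlier results of these data known. Genes named are the 10, genes of the related lists that passed or bear on the 10, and the 5 most correlated genes. H2-Q4, H2-Q6, H2-Q9, H2-Q10, Psmb9, Socs1, Jak1, Jak2, Ifngr1, Cd74 and the overlapping genes were singled out after their values were seen. The values of 1 regulator are not reported here.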

Additional observations from a re-analysis of the deposited data

How the results depend on the processing

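Leaving out one library gave from 0 to 5 of the 10 genes past an adjusted p of 0.05, from 0 to 10 other heavy chains, from 0 to 9 peptide supply genes, from 0 to 15 regulators and from 0 to 10 class II genes. Each highest count came without ultrasound 1, where 53.7% of all tested genes passed. The other heavy chain call, Hfe, became 0 with no filter, median-of-ratios factors, the replicate block, voom or the term for ultrasound 2 and 3. The peptide supply call became 0 with no filter, median-of-ratios factors, the replicate block or that term, and without control 1. The regulator call became 0 with no filter, the block or that term, and 2 with a common total. The authors' deposited table has 1 of the 10 genes, 4 other heavy chains, 1 peptide supply gene, 5 regulators and 1 class II gene at q under 0.05. Among all genes there, 12.3% have q under 0.05. The group difference in the log2 ratio of heavy chains to B2m ranged from 0.017 without control 1 to 0.12 without control 3. It was 0.075 with H2-K1 and H2-D1 only.

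No label says whether replicate numbers pair the libraries. The 3 correlations of deviations from the group means within a number were -0.041, 0.051 and 0.058. With 3 libraries per group, and ultrasound 2 and 3 standing apart, these values cannot decide whether the libraries pair. Fitting a replicate block left 0 of the 10 genes past the threshold (1 at an unadjusted p under 0.05). Over 16 alternatives for each of the 10 genes, 129 of 160 values kept their direction and side of the threshold, 6 passed and 25 turned sign, the cause of which was not tested. H2-K1 turned with median-of-ratios (-0.044), upper-quartile (-0.033), voom (-0.044) and in the authors' table (-0.065). B2m turned in these (-0.053, -0.042, -0.053 and -0.069) and with the term (-0.086), and Tap1 likewise (-0.060, -0.049, -0.060, -0.075 and -0.12). H2-T23 turned in these too (-0.10, -0.094, -0.10, -0.11 and -0.31). With the term H2-D1 was -0.022 and Erap1 0.039. Without one library H2-T23 spanned -0.095 to 0.16 and Tap1 -0.010 to 0.13. The median over the 10 genes was -0.082 with median-of-ratios factors or voom and -0.092 in the authors' table. Over all genes 864 passed, against 437 with median-of-ratios factors, 573 with voom, 150 with the term, 567 without control 1 and 5727 without ultrasound 1. It was 0 with no filter, with the block (3249 at an unadjusted p under 0.05) and without control 2, control 3, ultrasound 2 or ultrasound 3, so a lost call in those fits is shared by all genes.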

Other observations

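Ratios within a library do not depend on how the libraries were scaled. These were chosen after the values were seen and are given with no test. Tapbp stood at 0.913, 0.819 and 0.811 of Tap2 in control 1, 2 and 3, against 0.907, 1.35 and 1.35 in the ultrasound libraries. Nlrc5 stood at 0.0242, 0.0278 and 0.0263 of B2m in the controls and at 0.0241, 0.0171 and 0.0175 in the ultrasound libraries, so that ultrasound 1 lay just under control 1 and the other 2 well under it. Tap1 and its head-to-head neighbour Psmb9 kept a ratio between 1.13 and 1.25 in the controls and between 1.22 and 1.31 in the ultrasound libraries.

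H2-Q10, a secreted class I heavy chain, had 6.42, 7.44 and 7.25 FPKM in the controls and 8.93, 16.7 and 15.7 FPKM in the ultrasound libraries. All ultrasound libraries lay above all controls, while limma gave an adjusted p of 0.066 and the authors' deposited table a q of 0.02. H2-Q4, a nonclassical heavy chain, had 502, 537 and 589 FPKM in the controls and 508, 360 and 371 FPKM in the ultrasound libraries, where ultrasound 1 lay within the controls (limma adjusted p 0.128). The authors' deposited table gives H2-Q4 a q of 0.0447, lower.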
